A study of Caenorhabditis elegans with 19 samples.

Results

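The baseline transcriptome of the adult hermaphrodite gonad of the nematode Caenorhabditis elegans was described from the 7 libraries of ethanol-treated animals in the table of protein-coding genes, chosen by their treatment label out of 19 libraries in the whole series. The 4 RPOA-2 libraries came from strain ESC332, in which the RNA polymerase I subunit RPOA-2 can be degraded on auxin. The 3 GRWD-1 libraries came from strain ESC422, in which the same holds for GRWD-1, a chaperone of ribosome assembly. All 7 were vehicle controls: synchronized hermaphrodites were moved at the late L4 stage to plates with ethanol and no auxin for 18 h at 20 °C, gonads were dissected from the young adults, and 20 gonads were pooled per replicate. Both strains carry a degron-tagged protein, so neither is a wild type, and the alleles and the promoter of the degradation machinery are not given in the sources used here. The labels do not say whether replicates came from separate cultures, so p-values measure only the spread between these libraries.

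Each gonad arm is a tube in which germ cells mature from the distal to the proximal end. At the distal tip, Notch ligands from the somatic distal tip cell keep germ cells in a stem state; the cells then enter meiosis, pair and recombine their chromosomes in pachytene, and grow into oocytes loaded with maternal RNA, inside a contractile somatic sheath. Germ cells keep their X chromosomes largely silent through mitosis and most of meiotic prophase, and genes with germline functions are known to be rare on the X.

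The libraries held 1582308 to 4336988 counts on 19985 protein-coding genes, so that 3 counts, taken as the floor of detection, equal 0.692 to 1.90 CPM (counts scaled to library size). The reads were amplified by PCR and carry no molecular identifiers, and these floors therefore cover counting error only. Levels are given as TPM, counts per kilobase of merged exons scaled to the same total in each library, and ± marks the SD over the 7 libraries unless stated.

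RPOA-2 replicate 2 stood apart from the other libraries. It had a count on 18214 genes, against 9403 to 15460 in the other 6, and 1966 genes reached 1 TPM in it alone. It was also the deepest library, with 4336988 counts against 1582308 to 3350439 in the others, and the part of depth in these gene numbers was not tested. Across 6778 genes with a mean of at least 5 TPM, the Spearman correlations of RPOA-2 replicate 2 with the other libraries were 0.867 to 0.940, while pairs without it gave 0.925 to 0.974. Markers of tissues outside the gonad were high in it. The 15 intestine markers, most of their signal from vitellogenin (yolk protein) genes, summed to 540, 14387, 1944 and 7135 TPM in RPOA-2 replicates 1 to 4 and to 1471, 405 and 234 TPM in GRWD-1 replicates 1 to 3. The 10 hypodermis and cuticle markers summed to 77.5, 1661, 122 and 327 TPM in the RPOA-2 libraries and to 54.7, 20.8 and 17.7 TPM in the GRWD-1 libraries. RPOA-2 replicate 4 was the second highest for both lists. GRWD-1 replicate 2 stood apart in another way: 24 genes with a mean of at least 50 TPM had 3 counts or fewer in it, against 0 to 6 such genes in each other library. Leaving out RPOA-2 replicate 2 moved the values of somatic and sperm genes most, and their medians are also given without it. In these bulk samples, fewer cells of a type and less RNA per cell cannot be told apart.

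Most protein-coding RNA of the gonad came from few genes. Of 19985 genes, 12728 had a mean of at least 1 TPM, 5796 of at least 10, 1840 of at least 100 and 131 of at least 1000 TPM, and 1007 had no count in any library. The 10 most abundant genes held 10.2% of all TPM, the first 100 held 39.9% and the first 1000 held 68.9%. The median gene of those at 1 TPM or more lay at 6.45 TPM. Without RPOA-2 replicate 2, 10555 genes reached a mean of 1 TPM.

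Genes of the translation machinery led the ranking. The cytosolic ribosomal protein genes were listed by symbol (rps, rpl or rla, with ubl-1 added), so any with other symbols are left out. These 82 genes had a median of 3089 TPM and together held 30.7% ± 5.00 of all TPM. The highest gene of all was rpl-25.2 (chromosome I, 8329062 to 8329647, minus strand), a protein of the large subunit. It stood at 16840, 11238, 14982 and 17364 TPM in the RPOA-2 libraries, against 18029, 18943 and 14016 TPM in the GRWD-1 libraries. These sets of values overlapped, and RPOA-2 replicate 2 was the lowest. Among ribosomal protein genes it was followed by rpl-2 at 12433 ± 2522, rpl-6 at 10983 ± 2058, rps-8 at 9112 ± 1616 and rps-4 at 8943 ± 1882 TPM. The differences between neighbouring means in this order were within the larger of their SDs, except that between rpl-25.2 and rpl-2, which exceeded both. These SDs leave out that the genes share libraries. Compared within libraries, rpl-25.2 was above rpl-2, rpl-2 above rpl-6 and rpl-6 above rps-8 in every library. The order of rps-8 and rps-4 changed between libraries.

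Of the 82 ribosomal protein genes, 79 reached a mean of 100 TPM, and the others were rpl-42 at 1.53, rpl-41.1 at 31.02 and rpl-25.1 at 73.3 TPM. Ribosomal protein genes that share a number in their names had unequal RNA levels. The list was made by gene symbol, so a shared number does not show that both products are proteins of the ribosome. Such levels also do not show which protein enters ribosomes, or whether both do. Reads of rpl-25.2 outnumbered those of rpl-25.1, its X-linked paralog, by 217-fold per length (57.8 to 451 in single libraries), and rpl-24.1 stood 49.1-fold above rpl-24.2. The X-linked rpl-11.2 had 195 TPM beside 4295 TPM of rpl-11.1. The count of rpl-24.2 in the authors' fractional table was 0.501 times that in the protein-coding table, so reads shared with other features bear on its value.

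Outside the ribosomal proteins, eef-1A.1 (chromosome III, 6970026 to 6971712, minus strand), which encodes the elongation factor that delivers aminoacyl-tRNA to the ribosome, was the most abundant gene. It had 12146, 9395, 11954 and 10281 TPM in the RPOA-2 libraries, against 11437, 14337 and 12405 TPM in the GRWD-1 libraries, and these ranges overlapped. The elongation factors eef-1G and eef-2 had 3407 ± 231 and 2669 ± 349 TPM. The chaperones hsp-1, a constitutive Hsp70, and hsp-90 had 4215 ± 384 and 3369 ± 326 TPM, and sip-1, a small heat shock protein, 4196 ± 1080 TPM. The cyclophilin gene cyn-7 had 2598 ± 324 TPM. Overlap with a gene on the other strand was annotated for eef-1A.1, sip-1, eef-1G, hsp-90 and vig-1, and as the strand setting of the counting is not given, reads of such partners cannot be told apart. The same holds for glp-1, prg-1, him-3, xnd-1, cosa-1, spn-4, perm-2, egg-1, inx-9, inx-14 and vit-2 among the genes below.

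RNA-binding proteins and a component of the egg coat were among the 15 most abundant genes of the nucleus that encode no listed ribosomal protein. rbm-3.2 had 7299 ± 1098 TPM and vig-1, a component of the small RNA silencing complex, 2951 ± 379 TPM. cey-2 (chromosome I, 5619569 to 5620669), a Y-box protein of germ cells that binds mRNA, had 3041, 3294, 3476 and 3619 TPM in the RPOA-2 libraries and 3332, 3191 and 3574 TPM in the GRWD-1 libraries, an SD of 209 TPM around a mean of 3361. cpg-1 (chromosome III, 4489359 to 4491392), a chondroitin proteoglycan of the eggshell, had 3291 ± 567 TPM. Y37E3.8 had 4374 ± 696 TPM and lies outside the ribosomal list by its symbol only, as its function was not examined. The histone H4 genes his-67, his-64 and his-60 had 5680 ± 1570, 4024 ± 2162 and 2929 ± 721 TPM. Their merged exons are annotated as 312 bases and the H4 copies are nearly identical in sequence, so their single values are uncertain; for his-64 the fractional count was 1.37 times the protein-coding count. The 12 genes of the mitochondrial genome lay between 133 and 1992 TPM, with a median of 501, and the highest with a symbol was COX3, a subunit of cytochrome c oxidase, at 1992 ± 683 TPM.

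Germ cell and oocyte genes stood far above the typical gene. Across 6 lists with 116 genes, the median was 119.8 TPM, 99.1% of the genes had at least 10 TPM and 54.3% at least 100 TPM. Over all genes in the table, 29.0% reached 10 TPM and 9.21% reached 100 TPM. The 1 listed gene below was nanp-1, at 0.417 TPM. Summed over a list, the 7 libraries differed little: the highest was 1.12 times the lowest for chromosome pairing, axis and synapsis, 1.23 times for P granule components, and 1.58 times for maternal RNA-binding proteins, the widest of the 6.

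**Figure D1:**
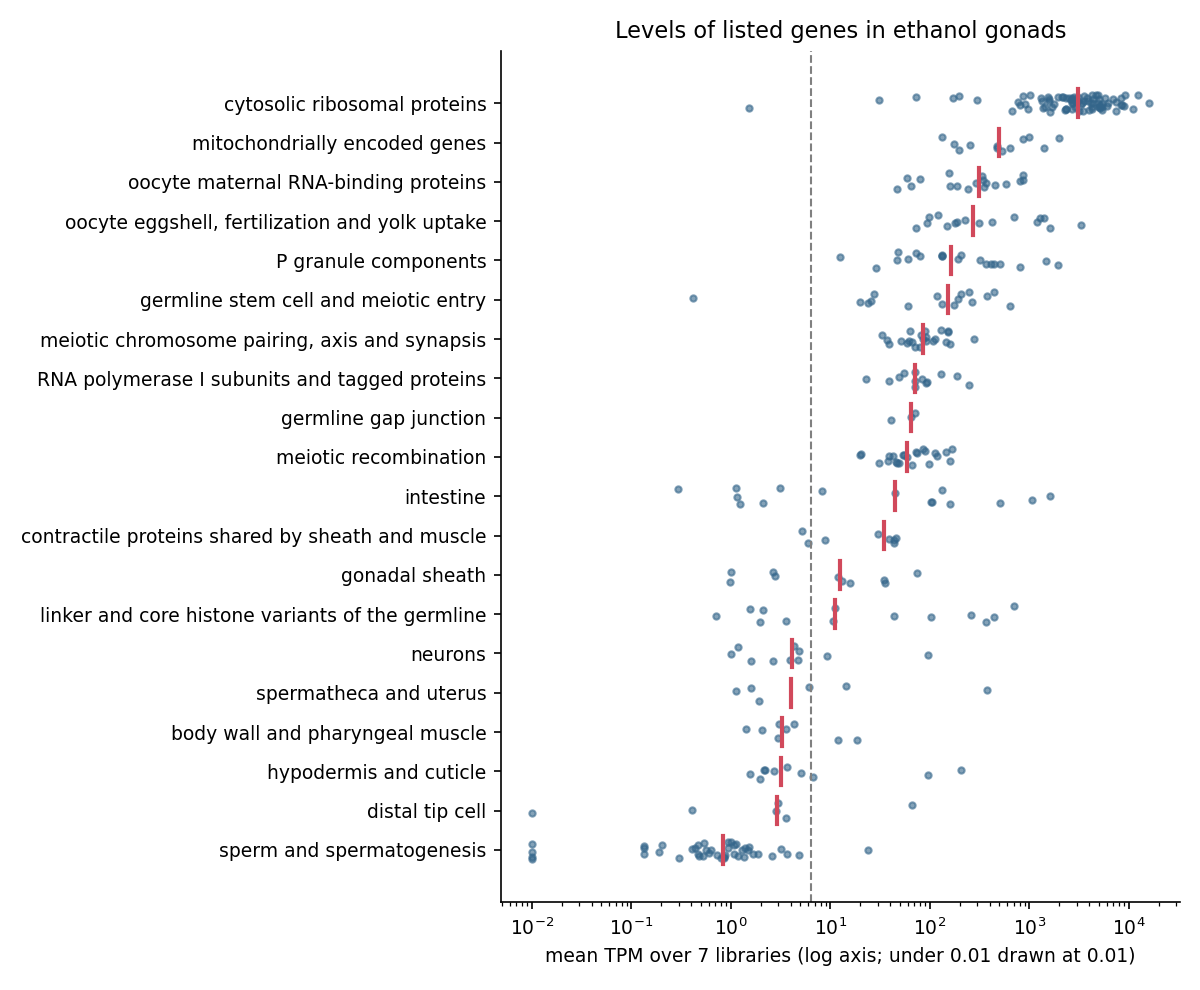
Mean TPM over the 7 ethanol libraries (log axis) of each gene in 20 lists, 1 point a gene, with the list median as a red bar and the median of all genes at 1 TPM or more, 6.45 TPM, as a dashed line. Germ cell and oocyte lists lie to the right of the line, and sperm, cuticle, neuron and distal tip cell lists mostly to its left.

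Genes that hold the stem cell pool and time entry into meiosis had a median of 153 TPM over 16 genes, 10 of them at 100 TPM or more. The Notch receptor glp-1 (chromosome III, 9092241 to 9099698) had 188, 205, 212 and 244 TPM in the RPOA-2 libraries and 143, 204 and 147 TPM in the GRWD-1 libraries. Of its direct targets that keep the stem state, sygl-1 had 249 ± 36.1 TPM and lst-1 60.6 ± 13.7 TPM, and sygl-1 was higher in 7 of 7 libraries. The translational repressors fbf-1 and fbf-2, which act with them, were low at 25.5 ± 3.21 and 23.8 ± 3.38 TPM and did not differ beyond their SD. Their fractional counts were 1.32 and 1.29 times their protein-coding counts, so these values leave out reads that map to several places. puf-8, another repressor of the PUF family, had 207 TPM. 

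The highest of this list was gld-1 (chromosome I, 7695681 to 7698222), a KH-domain repressor of translation that is abundant in pachytene. It had 667, 576, 727 and 476 TPM in the RPOA-2 libraries and 524, 846 and 641 TPM in the GRWD-1 libraries. The ranges overlapped, with GRWD-1 replicate 2 highest. daz-1, an RNA-binding protein needed for oogenesis, had 446 ± 73.7 TPM, atx-2, the ataxin-2 homologue, 372 TPM and nos-3, a Nanos protein, 268 TPM. The cytoplasmic poly(A) polymerase gld-2 had 118 TPM and its partner gld-3 175 TPM. fog-1 and fog-2, which direct germ cells to the sperm fate, had 27.2 and 19.7 TPM.

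Components of P granules, the RNA condensates of germ cells, had a median of 162 TPM over 20 genes. Those that also belong to general mRNA repression complexes were highest: car-1 at 1937 ± 306, the DEAD-box helicase cgh-1 at 1460 ± 197 and ifet-1, a binding partner of the cap-binding factor eIF4E, at 807 TPM. The constitutive P granule proteins followed. glh-1, a Vasa helicase, had 509 ± 92.4 TPM, pgl-3 413 ± 50.4 and pgl-1 369 ± 35.4 TPM. pgl-3 was above pgl-1 in 6 of 7 libraries, while their means differed by less than the SD of pgl-3. glh-1 was above glh-2, at 191 TPM, in 7 of 7. Among the Argonaute proteins of small RNA pathways, wago-1 had 437, the piRNA-binding prg-1 317 and csr-1 208 TPM. The count of csr-1 in the fractional table was 0.514 times that in the protein-coding table. The 4 meg genes, whose proteins organize P granules in the embryo, were low in this list, with meg-1 at 73.4 TPM and the 3 lowest places taken by meg-3 at 46.8, meg-4 at 29.1 and meg-2 at 12.5 TPM. All 4 lie on the X, and no other gene of the 6 lists does.

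Genes of chromosome pairing, axis and synapsis lay in a narrow band, from 33.1 to 279 TPM over 23 genes with a median of 85.3 TPM. All 23 had at least 10 TPM. syp-4 (chromosome I, 6847511 to 6849923), of the central region of the synaptonemal complex, had 292, 257, 246 and 295 TPM in the RPOA-2 libraries and 290, 269 and 303 TPM in the GRWD-1 libraries. It was above syp-1, at 90.6 TPM, in 7 of 7 libraries, by 3.08-fold. The other central region genes syp-2, syp-3, syp-5 and syp-6 had 90.8, 108, 79.8 and 85.3 TPM. Of the axis, the cohesin rec-8 had 159 ± 13.7 TPM, the HORMA protein htp-3 153 ± 7.19 TPM and him-3 114 ± 18.4 TPM. The related HORMA genes htp-1 and htp-2 had 66.4 and 61.5 TPM, with htp-1 higher in 4 of 7 libraries, and the cohesins coh-3 and coh-4 had 88.6 and 82.1 TPM, with coh-3 higher in 5 of 7. Neither pair differed beyond its SD. sun-1 and zyg-12, which span the nuclear envelope and move chromosomes, had 144 and 130 TPM. The zinc finger proteins that bind pairing centres were at 63.6 TPM for him-8, which serves the X, and at 59.1, 33.1 and 37.5 TPM for zim-1, zim-2 and zim-3, which serve autosomes.

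Recombination genes were lower, with a median of 59.5 TPM over 23 genes, of which 5 reached 100 TPM. These 5 were rad-50 at 167 ± 36.4, xnd-1 at 158 ± 14.3, him-17 at 146 ± 12.5, com-1 at 117 and dsb-2 at 112 TPM. rad-50 and mre-11, at 98.9 TPM, encode a nuclease complex that processes DNA ends, and xnd-1 and him-17 encode chromatin-associated proteins that affect break formation. spo-11, which makes the meiotic double-strand breaks, had 53.9 ± 8.85 TPM, and its exons overlap those of enpl-1 on the other strand. The strand exchange gene rad-51 had 73.1 ± 12.1 TPM. Of the crossover factors, msh-5 had 65.9, him-14 45.4, zhp-3 85.6 and cosa-1 20.2 TPM. rfs-1, a RAD-51 paralog, was the lowest of the list at 19.8 TPM.

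Maternal RNA-binding proteins, which act in growing oocytes and the early embryo, had a median of 312 TPM over 18 genes, and 14 reached 100 TPM. spn-4 (chromosome V, 6783187 to 6784903, minus strand) had 794, 1130, 1037 and 1017 TPM in the RPOA-2 libraries. In the GRWD-1 libraries it had 657, 716 and 697 TPM. These 2 sets of values did not overlap, and by CPM the same held for 12.9% of all genes tested. pos-1, a zinc finger protein that specifies cell fates of the embryo, had 767, 1065, 975 and 1015 TPM in the RPOA-2 libraries and 628, 718 and 825 TPM in the GRWD-1 libraries, which overlapped. The polarity gene mex-5 had 801 ± 131 TPM. The means of spn-4, pos-1 and mex-5 differed by less than their SD, which leaves out that the genes share libraries. The order of spn-4 and pos-1 changed between libraries, and mex-5 was not compared with them within libraries. puf-5 had 578 ± 114 TPM and mex-3 454 ± 68.1 TPM.

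Within pairs of close relatives the levels often differed in every library. mex-5 was 2.30-fold above mex-6, and oma-2 was 1.58-fold above oma-1, which with it is needed for oocyte maturation, each in 7 of 7 libraries. lin-41, a brake on oocyte maturation, had 240 ± 39.7 TPM. puf-6 and puf-7 had fractional counts 2.12 and 2.00 times their protein-coding counts, so their values of 58.4 and 80.0 TPM leave out reads that map to both.

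Genes of the eggshell, of fertilization and of yolk uptake had a median of 269 TPM over 16 genes. cpg-1, described above, was 2.34-fold above cpg-2, at 1408 ± 256 TPM, in 7 of 7 libraries. cbd-1, a chitin-binding protein of the vitelline layer, had 1467, 1681, 1716 and 1798 TPM in the RPOA-2 libraries, against 1370, 1857 and 1450 TPM in the GRWD-1 libraries, and these ranges overlapped. perm-4 and perm-2, of the permeability barrier, had 1273 ± 299 and 1206 ± 346 TPM. The chitin synthase chs-1 had 313 TPM. rme-2, the yolk receptor of the oocyte, had 655, 806, 825 and 820 TPM in the RPOA-2 libraries and 580, 656 and 604.3 TPM in the GRWD-1 libraries. The lowest RPOA-2 value lay just below the highest GRWD-1 value. Of the sperm-interacting and egg activation genes, egg-1 had 421 ± 68.1 TPM and was 1.87-fold above egg-2, while egg-3 had 122 TPM and gna-2, which makes the precursor of chitin, had 72.9 TPM.

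Among 13 histone variants, those with high levels were htz-1, the H2A.Z variant, at 701 ± 74.2 TPM, the linker histones hil-4, hil-5 and hil-2 at 445, 369 and 262 TPM, and the H3.3 gene his-72 at 103.98 TPM. The other 8 were at 43.3 TPM or less, and the H3.3 gene his-71 had 2.13 TPM. The 3 genes tagged in the series were all expressed in these control gonads: grwd-1 at 249 ± 49.1 TPM, tsr-2 at 90.7 ± 18.5 TPM and rpoa-2 at 71.7 ± 15.3 TPM. rpoa-2 had 85.5, 81.8, 86.8 and 74.5 TPM in its own strain, against 43.7, 66.1 and 63.5 TPM in the GRWD-1 strain. grwd-1 had 216, 209, 228 and 220 TPM in the RPOA-2 strain, against 257, 351 and 262 TPM in its own strain. Neither gene's values overlapped between the strains. By CPM, values did not overlap for 975 of 7549 genes tested (12.9%). Neither rpoa-2 nor grwd-1 passed the test of all genes described further on.

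Sperm genes were near the floor. Of 44 listed genes, 16 had at least 1 TPM and the median was 0.826 TPM. Without RPOA-2 replicate 2 these were 8 genes and 0.386 TPM: that library had a count on 35 of the genes, against 6 to 24 in the others. The 28 genes of major sperm protein had 118 counts in all over the 7 libraries, 4 of them had none, and their summed level ran from 2.64 to 63.01 TPM. Reads shared among these near-identical copies were part of this: their fractional counts were 1.78 times the protein-coding counts. The only one of the 44 above 10 TPM was spe-44, a transcription factor of spermatogenesis, at 24.04 ± 6.44 TPM and present in 7 of 7 libraries.

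Genes of the somatic gonad were present at lower levels than those of germ cells. The 10 markers of the gonadal sheath had a median of 12.5 TPM, or 7.77 TPM without RPOA-2 replicate 2. The sheath innexin inx-8, a gap junction subunit, had 130, 113.5, 99.6 and 65.8 TPM in the RPOA-2 libraries, against 35.8, 45.9 and 33.9 TPM in the GRWD-1 libraries. These values did not overlap, and by CPM the same held for 12.9% of all genes tested. inx-8 was 4.76-fold above its partner inx-9 (2.48 to 8.70 in single libraries) and higher in 7 of 7 libraries. The fractional counts of inx-9 were 1.30 times its protein-coding counts. The engulfment receptor ced-1, which the sheath uses to take up dying germ cells, had 34.6 ± 4.59 TPM. The transcription factors of the sheath were close to the floor, lim-7 at 2.65, ceh-18 at 2.81 and fkh-6 at 0.988 TPM. The partner innexins on the germ cell side varied less: inx-22 had 70.3 ± 10.3, inx-14 64.1 ± 12.5 and inx-21 40.5 TPM.

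Of the 6 distal tip cell markers, the Notch ligand apx-1, also known as a maternal RNA of the embryo, had 65.6 ± 8.47 TPM, and the other ligand lag-2 had 4.73, 10.2, 1.19 and 0 TPM in the RPOA-2 libraries and 4.59, 0.340 and 0 TPM in the GRWD-1 libraries. hlh-12, a transcription factor of the migrating distal tip cell, had no count in any library. Of the 6 spermatheca and uterus markers, the actin-binding filamin fln-1 had 379 ± 82.9 TPM, while sth-1 and lin-11 had 1.13 and 1.60 TPM, or 1.32 and 1.27 TPM without RPOA-2 replicate 2. The level of fln-1 was lowest, at 276 TPM, in RPOA-2 replicate 2, the library with most RNA of other tissues. The exons of fln-1 overlap those of cdh-8 on the other strand.

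**Figure D2:**
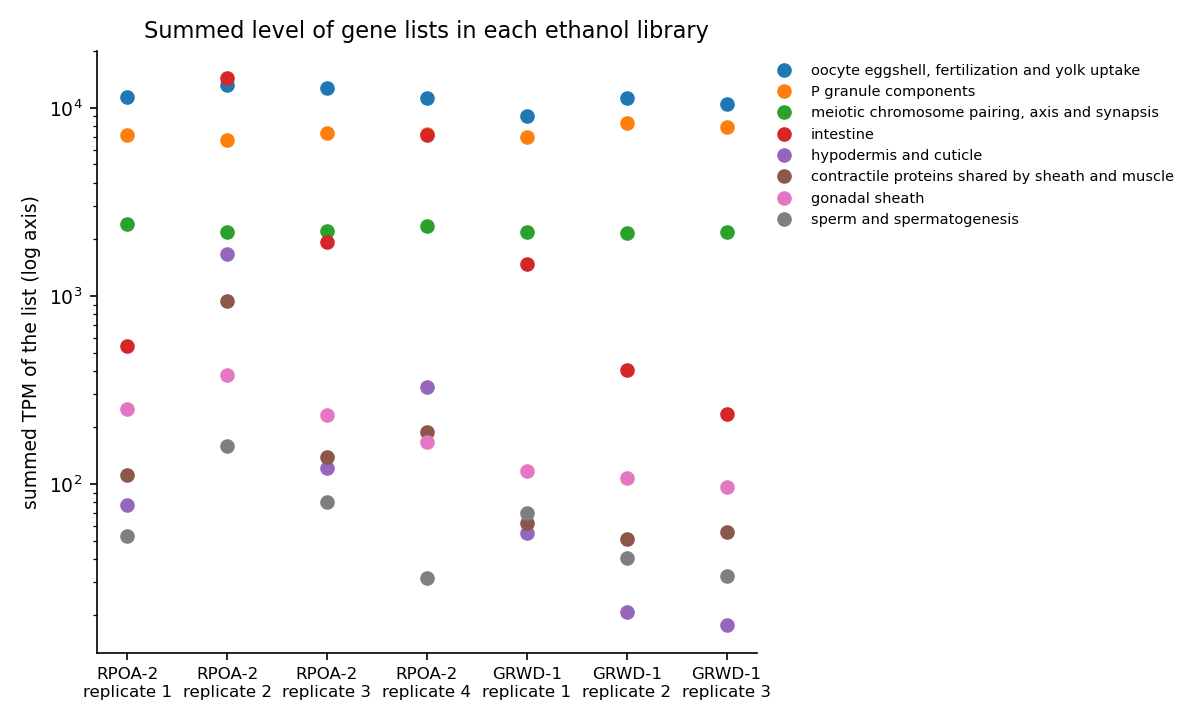
Summed TPM (log axis) of 8 gene lists in each of the 7 ethanol libraries, 1 point per library and list. The eggshell, P granule and synapsis lists are level across libraries, while the intestine list spans 234 to 14387 TPM and the cuticle list 17.7 to 1661 TPM.

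Genes of tissues outside the gonad were the most variable. vit-6, which encodes a yolk protein made in the intestine, had 225, 6239, 824 and 2923 TPM in the RPOA-2 libraries, against 693, 173 and 111 TPM in the GRWD-1 libraries, which overlapped. elt-2, the regulator of intestinal fate, was at 1.14 TPM on average, or 0.253 TPM without RPOA-2 replicate 2. The myosin heavy chain unc-54 of body muscle had 22.1, 208, 27.1 and 21.6 TPM in the RPOA-2 libraries and 12.3, 15.9 and 12.2 TPM in the GRWD-1 libraries. The 8 contractile genes, of which sheath and muscle share several, summed to 112 to 942 TPM in the RPOA-2 libraries and 51.3 to 61.9 TPM in the GRWD-1 libraries, without overlap, and the RPOA-2 maximum without replicate 2 was 189 TPM. The summed sheath markers were 251, 382, 234 and 166 TPM in the RPOA-2 libraries and 117, 108 and 96.3 TPM in the GRWD-1 libraries, also without overlap. Of the 10 neuron markers, snb-1, a synaptobrevin, had 95.6 ± 24.9 TPM, and the other 9 had 9.25 TPM or less.

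Spread between libraries was small for most genes with enough reads. Over 3466 genes with a mean of at least 50 CPM, the coefficient of variation (CV, SD over mean) had a median of 14.5%, and 80 in 100 genes lay between 8.78 and 25.19%. The median CV was 13.05% for synapsis genes, 13.8% for recombination genes, 14.9% for P granule genes, 16.8% for maternal RNA-binding proteins and 17.2% for eggshell genes. Ribosomal protein genes had 19.8%, or 15.1% without RPOA-2 replicate 2. The biological coefficient of variation estimated by edgeR was 26.0% in the RPOA-2 group, 18.7% without its replicate 2, and 19.7% in the GRWD-1 group.

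The most even gene was mog-3, whose product takes part in the switch from sperm to oocyte production. It had 317, 325, 306 and 331 TPM in the RPOA-2 libraries and 313, 328 and 316 TPM in the GRWD-1 libraries, a CV of 2.78%. It was followed by K07A12.1 at 141.99 ± 4.35 TPM, erfa-3, a translation release factor, at 258 ± 8.89, saps-1, a protein phosphatase subunit, at 128.1 ± 4.61, and ced-12, an engulfment protein, at 59.5 ± 2.09 TPM. The 5 most variable genes were col-124, col-8, col-20, epic-2 and col-19, 4 of them cuticle collagens, with CVs of 198 to 228%. All 5 were highest in RPOA-2 replicate 2. For example, col-8 had 15.3, 1115, 50.0 and 202 TPM in the RPOA-2 libraries and 12.6, 4.40 and 0.587 TPM in the GRWD-1 libraries.

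The X chromosome gave little of the RNA. It holds 2731 genes, 13.7% of the table, and gave 3.16% ± 1.78 of counts, while the 5 autosomes gave 96.3% ± 1.75. On the X 381 genes (13.95%) had at least 10 TPM, and on the autosomes 5403 of 17242 (31.3%). At 100 TPM or more were 29 X genes (1.06%) and 1799 autosomal genes (10.4%). The X held 18.4% of genes between 1 and 10 TPM, 1.58% of the 1840 genes at 100 TPM or more, and 3.82% of the 131 genes at 1000 TPM or more, 5 genes. The autosomes differed among themselves too. Of the genes on III and I, 46.7 and 45.1% reached 10 TPM, of those on IV and II 30.4 and 30.0%, and of those on V 16.8%. At 10 TPM V thus lay nearer the X than the other autosomes did, while at 100 TPM V had 5.57% of its genes.

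**Figure D3:**
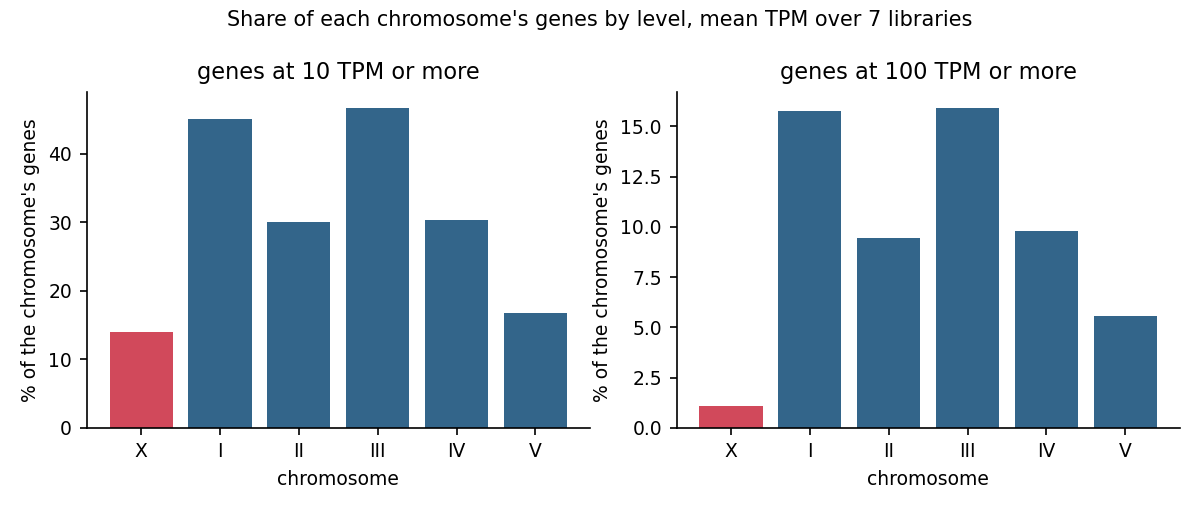
Percent of each chromosome's protein-coding genes at a mean of at least 10 TPM (left) and at least 100 TPM (right) over the 7 ethanol libraries, the X in red and autosomes in blue. The X is lowest in both, with 13.95% at 10 TPM and 1.06% at 100 TPM.

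In each library the median X gene lay below the median gene of the pooled autosomes. Chromosome V was about as low as the X on this measure. By mean TPM over genes at 1 TPM or more, the median was 2.89 for V, 3.12 for the X and 8.50 for the pooled autosomes. Over genes with a mean of at least 1 TPM, 1654 on the X and 11062 on autosomes, the log2 ratio of medians was -1.52, -0.87, -1.59 and -1.83 in the RPOA-2 libraries and -1.32, -3.07 and -2.69 in the GRWD-1 libraries. The mean was -1.84 ± 0.775. The ratio was below 0 in 7 of 7 libraries (two-sided exact sign-flip permutation test, p = 0.0156, the smallest that 7 libraries allow). Each library compares the same genes, so this p covers only the spread between libraries and does not set the X apart from chromosome V. RPOA-2 replicate 2 was nearest to 0. Without it the mean was -2.66 ± 0.660 over the genes then at 1 TPM or more (exact p = 0.0313, the smallest that 6 libraries allow). With each chromosome cut into 3 stretches of equal length, the ratio was -3.27 for genes in the middle stretch and -1.19 for those in the outer stretches. On the X 13.4% of genes in the middle stretch and 14.3% in the outer stretches reached 10 TPM, and on autosomes 36.3% in the middle and 28.3% in the outer stretches.

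The share of counts on the X was 2.73, 6.80, 3.10 and 3.76% in the RPOA-2 libraries, against 2.41, 1.46 and 1.86% in the GRWD-1 libraries. The sets did not overlap, and the difference of means was 2.18 percentage points (exact permutation test, two-sided, p = 0.0571, the smallest that 4 against 3 libraries allow). Without RPOA-2 replicate 2 the difference was 1.28 points (exact p = 0.1, again the smallest the design allows). Library numbers fall into 2 series, and within the later one the comparison is a single RPOA-2 library, replicate 4 at 3.76%, with the 3 GRWD-1 libraries, so it has no test. The summed vitellogenins, of which several lie on the X and so count in the share, had 477, 13636, 1773 and 6868 TPM in the RPOA-2 libraries. In the GRWD-1 libraries they had 1392, 381 and 224 TPM. RPOA-2 replicates 2, 4 and 3 were highest in both, in this order, while the order of the other libraries differed. With the listed somatic genes left out, a choice made after the data were seen, the X share was 2.64, 4.63, 2.79 and 2.52% in the RPOA-2 libraries and 2.17, 1.40 and 1.82% in the GRWD-1 libraries. The part of RNA from other tissues in the remaining difference was not tested.

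**Figure D4:**
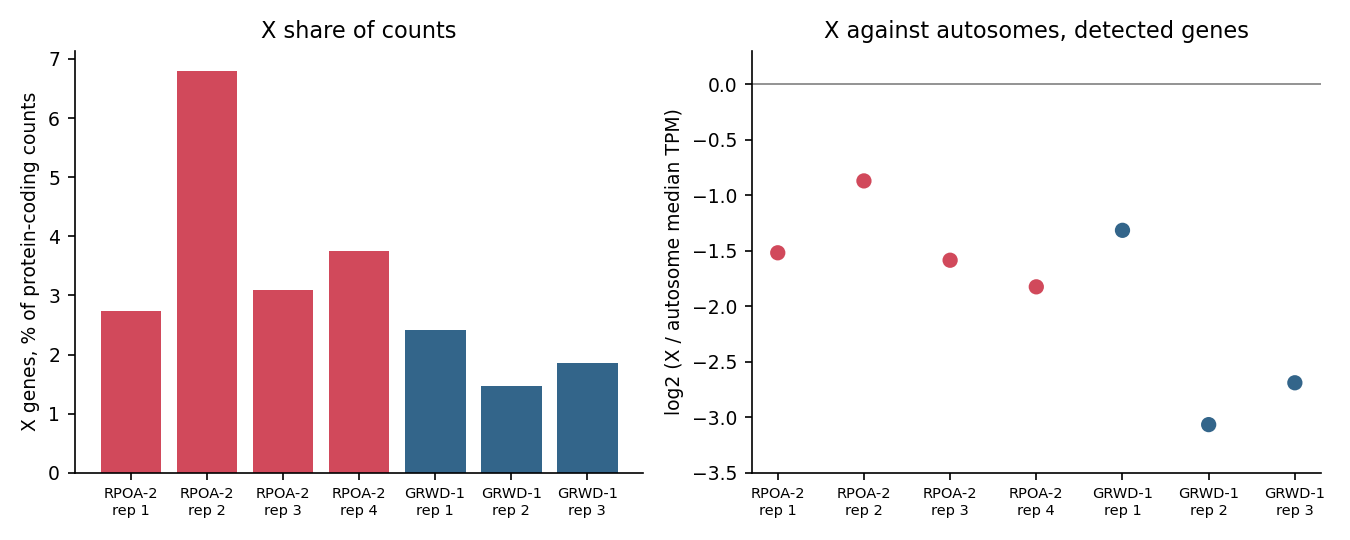
Left, X genes as percent of protein-coding counts in each ethanol library, and right, log2 of the median TPM of X genes over that of autosomal genes, for genes at a mean of 1 TPM or more, RPOA-2 libraries in red and GRWD-1 libraries in blue. RPOA-2 replicate 2 has the highest share, 6.80%, and the ratio nearest to 0, and every ratio is below 0.

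X genes had higher CVs than autosomal genes. Over genes at 50 CPM or more, the median CV was 36.6% for 88 X genes and 14.4% for 3368 autosomal genes, and without RPOA-2 replicate 2 it was 31.1 and 14.5%. Between 50 and 100 CPM it was 36.3% for 51 X genes and 16.1% for 1207 autosomal genes, and between 100 and 500 CPM 36.8% for 33 and 13.3% for 1844. These are descriptions without a test. Among X genes, the highest mean over 7 libraries was that of F23A7.8. It had 505, 462, 454 and 1227 TPM in the RPOA-2 libraries, against 4131, 1236 and 6718 TPM in the GRWD-1 libraries. These sets did not overlap, RPOA-2 being lower, and by CPM 12.9% of all genes tested had no overlap. The fractional counts of F23A7.8 were 1.72 times its protein-coding counts. Its mean of 2105 TPM rested on GRWD-1 replicates 1 and 3. It was 1336 TPM without replicate 3, below ZK813.7 at 1896 and C39D10.7 at 1627, and 1767 TPM without replicate 1, below ZK813.7 at 2072. ZK813.7 had 2562, 3724, 3327 and 1284 TPM in the RPOA-2 libraries, against 477, 1.32 and 1536 TPM in the GRWD-1 libraries. It was one of the 24 genes near the floor in GRWD-1 replicate 2, as were ZK813.1, Y62H9A.5 and ule-5, a gene named for its uterine lumen expression. ule-5 had 642, 877, 886 and 239 TPM in the RPOA-2 libraries and 97.9, 0 and 312 TPM in the GRWD-1 libraries, and 0 counts in GRWD-1 replicate 2. C39D10.7 was more even, at 1509 ± 518 TPM, and was at 803 TPM or more in 7 of 7 libraries. The yolk genes vit-2 and vit-5 were also among the 10 highest X genes, at 1058 ± 1521 and 510 ± 707 TPM, or 536 and 288 TPM without RPOA-2 replicate 2.

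The control gonads of the 2 strains were then compared gene by gene. With edgeR's quasi-likelihood test and Benjamini-Hochberg adjustment, 1 of 7549 genes tested (0.0132%) passed an adjusted p of 0.05, and 1102 (14.6%) had an unadjusted p under 0.05, 610 of them higher and 492 lower in the RPOA-2 strain. Of the 4 RPOA-2 libraries, 3 belong to the earlier library series and all GRWD-1 libraries to the later one, so strain and series can be told apart only through RPOA-2 replicate 4. With series as a covariate, 478 genes had an unadjusted p under 0.05, and 1, again sax-2, passed the adjusted threshold. Values of the strains did not overlap for 975 genes (12.9%). The gene was sax-2 (chromosome III, 5109701 to 5130676, plus strand), which encodes a large protein of the Furry family known for its role in neurite form. Its level was 338, 322, 307 and 451 CPM in the RPOA-2 libraries, against 124, 127 and 161 CPM in the GRWD-1 libraries. It was higher in the RPOA-2 strain by 1.36 ± 0.166 (SE) on the log2 scale (edgeR adjusted p = 0.0463). The call was lost with any of RPOA-2 replicates 1 and 3 and GRWD-1 replicates 1 and 2 left out, with the adjusted p ranging from 0.0170 to 0.153 over single libraries left out. DESeq2 called 215 genes (2.85%) on the same libraries.

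None of the lists held a gene that passed in edgeR, so their values are given as a description. Of 81 ribosomal protein genes tested, 77 were lower in the RPOA-2 strain, with a median log2 difference of -0.51, beside 0.01 over all genes tested. An unadjusted p under 0.05 was reached by 50 of them, 49 lower, and DESeq2 called 29, all lower. Without RPOA-2 replicate 2 the median was -0.36 with 41 genes under 0.05, and with library series as a covariate it was -0.45 with 8. Their share of TPM was 32.5, 21.3, 28.0 and 29.0% in the RPOA-2 libraries, against 35.3, 34.2 and 34.7% in the GRWD-1 libraries, without overlap. RPOA-2 replicate 2, with most RNA of other tissues, was lowest, and the part of that RNA in the difference was not tested. 

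All 10 intestine genes tested had a higher mean in the RPOA-2 strain, by a median log2 of 2.89, of which 9 had an unadjusted p under 0.05 and DESeq2 called 1. The size of this difference rested largely on RPOA-2 replicates 2 and 4. Without replicate 2 the median was 2.01 over 9 genes tested, and without both it was 0.72, with 2 of 10 genes under 0.05 and all 10 still higher. With library series as a covariate, which compares the strains through RPOA-2 replicate 4 only, the median was 3.01. RPOA-2 replicate 1 lay below GRWD-1 replicate 1 in the summed list, and for 1 of the 10 genes the strains did not overlap. All 7 contractile genes tested were higher, by a median of 2.38, all with an unadjusted p under 0.05, and DESeq2 called 3. Without RPOA-2 replicate 2 the median was 1.21, with 5 of 7 under 0.05, and with library series as a covariate 1.29, with 1 of 7. Of the sheath markers 7 of 8 were higher, by a median of 1.34, with 4 under 0.05 unadjusted and 2 called by DESeq2. The median was 1.19 over 6 tested without RPOA-2 replicate 2, and with library series as a covariate 0.63 over 8. The germ cell lists stayed near 0: medians were -0.20 for P granule components, -0.12 for stem cell and meiotic entry, -0.11 for synapsis, -0.09 for recombination, 0.06 for maternal RNA-binding proteins and 0.12 for eggshell genes. Among these 6 lists, unadjusted p under 0.05 was reached by 9 of 20, 0 of 15, 3 of 23, 1 of 23, 1 of 18 and 1 of 16 genes tested, and DESeq2 called 2, 0, 1, 0, 0 and 0. Over all genes tested these shares were 14.6 and 2.85%. Of the 9 P granule genes, 7 were lower in the RPOA-2 strain. The P granule median was -0.14 with RPOA-2 replicate 2 left out, and 5 of 20 genes were then under 0.05. With library series as a covariate it was -0.14, with 0 of 20. Of 828 X genes tested, 762 were higher in the RPOA-2 strain, by a median of 0.77, 212 had an unadjusted p under 0.05 and DESeq2 called 40. The X median was 0.54 over 693 genes without RPOA-2 replicate 2, 124 of them under 0.05, and with library series as a covariate it was 0.48, with 81 of 828.

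**Figure D5:**
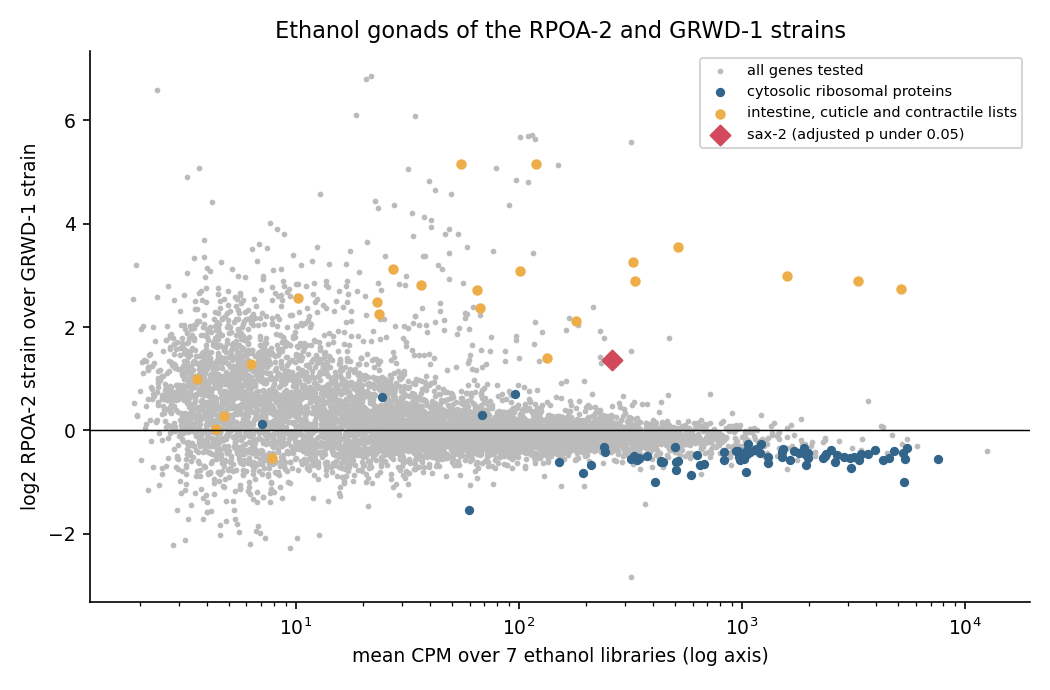
Log2 difference of RPOA-2 over GRWD-1 ethanol gonads (edgeR) against mean CPM over 7 libraries (log axis), 1 point a gene for 7549 genes tested, with ribosomal protein genes in blue, the intestine, cuticle and contractile lists in yellow and sax-2 as a red diamond. Ribosomal protein genes lie mostly below 0, with a median of -0.51, and the yellow points mostly above it.

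The 2 ethanol libraries of the TSR-2 strain, present as fractional counts in the authors' other table, gave a similar ranking. Over 7354 genes the Spearman correlation of their mean level with that of the RPOA-2 and GRWD-1 ethanol libraries in the same table was 0.971, and 97 of the 100 most abundant genes were shared. These values rest on the same genes and the same processing, and are a description. The X gave 1.74 and 2.64% of their protein-coding fractional counts, beside 1.49 to 7.72% in the 6 RPOA-2 and GRWD-1 ethanol libraries of that table.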

How the data were processed

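Total RNA of dissected gonads was converted with the SMARTer Stranded kit and amplified by PCR in 15 to 17 cycles, per the labels' protocols. The submitters' processing notes name Trim Galore 0.6.10, HISAT2 2.2.1, Picard and featureCounts 2.0.6 and the build WBcel235; the strand setting and the annotation release are not given in the sources used here. The authors deposited whole-number counts of protein-coding genes without normalization, and in another table expected counts, where reads with several mapping places contribute a fraction to each. RPOA-2 replicate 4 is in the count table only. Protein-coding genes held 7.52 to 11.1% of the expected counts in the other 6 libraries. Expected counts were rounded before testing, and 0 sample columns were left unused.

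All 19985 genes were matched by identifier to the Ensembl annotation of WBcel235, release 115, for symbols, coordinates (counted from 1) and merged exon length. TPM was computed from the counts. Genes with a mean of at least 1 TPM were called detected. Strains were compared with edgeR 4.0.16 under R 4.3.3 (low counts removed by filterByExpr, TMM, quasi-likelihood F test, no covariate, Benjamini-Hochberg over all genes tested); SE is the log2 difference over the square root of F. Single values were compared with exact permutation tests over libraries. DESeq2 1.42.0, other scalings, filters, library subsets, expected counts, thinned counts and each library left out were alternatives. The script was tested on simulated data.

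The libraries and gene lists were chosen with earlier results of these data known. Genes were named by a rule. It took the 15 most abundant nuclear genes other than listed ribosomal protein genes, and the 5 most abundant listed ribosomal protein genes. It also took the most abundant mitochondrial genes that carry a symbol, the 10 most abundant X genes and genes of the lists. The 5 largest and 5 smallest CVs at 50 CPM or more, called strain genes and the 3 tagged genes completed it. Lower paralogs and genes near the floor in GRWD-1 replicate 2 were named after their values were seen. No sequences are shown.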

Additional observations from a re-analysis of the deposited data

Results flagged for a closer look

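In the group of 4 RPOA-2 libraries, 85 values were examined for a library far from the other 3 by Dixon's criterion, and 13 met it. Chance meets this criterion in about 1 in 20 groups, but that rate cannot be set against the 13. The flagged genes col-19, col-20, col-8, col-124 and epic-2 had been chosen for their large CV over these same libraries. Some genes, such as col-19, also entered both singly and within a list. RPOA-2 replicate 2 was the high library for the summed contractile genes (942 TPM, the others 112 to 189), body muscle genes (148.5 TPM, the others 34.7 to 44.5) and cuticle genes (1661 TPM, the others 77.5 to 327). It was also high for col-19 (517.7 TPM), col-20 (1001 TPM), col-8 (1115 TPM), col-124 (1063 TPM) and epic-2 (193.7 TPM). RPOA-2 replicate 4, the library with fewest counts, was apart for the joint list of RNA polymerase I subunits and tagged proteins at 1020 TPM (the others 1350 to 1383). That sum includes grwd-1 and tsr-2, which are not subunits of the polymerase. The same library was apart for the histone genes his-64 at 2813 TPM (the others 3875 to 4077) and his-60 at 2856 TPM (the others 3252 to 3329), and for F23A7.8 at 1227 TPM (the others 454 to 505). RPOA-2 replicate 1 was low for the summed histone variants at 1904 TPM (the others 2042 to 2058), a gap that is small relative to the level.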

How the results depend on the processing

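The X to autosome ratio stayed below 0 in each setting run, from -3.27 in the middle stretch of the chromosomes to -1.19 in the outer stretches, and from -2.66 to -1.51 with single libraries left out. It was not computed over all genes with a count, since the X median is 0 in a library. The mean X share ran from 2.55 to 3.44%, and the difference between strains from 1.28 to 2.64 points, with single libraries left out. Genes detected numbered 6778 at a mean of 5 TPM, 6582 at 3 counts in each library, and 10555 to 13376 with single libraries left out, lowest without RPOA-2 replicate 2. The median of the 6 germ cell lists was 127.9 TPM with the longest transcript as length, and 118 to 123 TPM with single libraries left out. The number of genes that differed between strains, 1, was 2 with total counts as scaling (median shift of all genes 0.13 in log2), 301 without the low-count filter, 2 at a mean of 50 counts, 62 with the later library series only (a single RPOA-2 library, assumed to vary like the GRWD-1 ones), 3 with thinned counts, 7 with expected counts, 215 with DESeq2, and 0 to 9 with single libraries left out. sax-2 was called in each of these but 4 of the single-library omissions. With the replicate number as a block 1 gene was called, which was not sax-2 (log2 1.24, adjusted p = 0.0579 in edgeR). The numbers pair no libraries by label; across 5755 genes same-numbered libraries of the strains deviated with correlations of -0.33 to 0.19, against -0.23 to 0.48 for other pairs, and 1 of 3 RPOA-2 libraries was closest to its own number. Of 746 other values, 729 kept within the spread between libraries or on their side of the threshold, 12 moved, each with expected counts, and 5 were sax-2 without its call. Many of the 729 are means of single genes with 1 library left out. Such a mean cannot shift by as much as the SD over the libraries, so these values could not count as moved and say nothing on stability. Depth limits statements on genes under about 1.90 CPM.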
